A study of Mus musculus with 6 samples.

Results

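Glycolysis and hypoxia response genes were followed in brain microglia of lupus-prone MRL/lpr mice and of control MRL/mpj mice. The set is a list of named genes, made up of enzymes and transporters of glucose breakdown and well-known genes of the hypoxia pathway, and its rule uses no measured value, although it was drawn up with earlier results of these data known. It holds 33 of the 55401 genes in the count table, and all 33 passed the filter on low counts. They fall into 6 roles, namely glucose uptake and phosphorylation (5 genes), upper glycolysis (9), lower glycolysis (6), lactate and pyruvate handling (6), oxygen sensing (3) and other hypoxia targets (4).

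Microglia were purified from the brains of untreated animals aged 6 weeks on a Percoll gradient and with magnetic beads against CD11b, a surface protein of microglia and of other myeloid cells, after enzymatic digestion of the tissue. Sequencing covered 3 RNA preparations per strain, and the question was how microglial transcription differs between the strains at this age. Both strains share the MRL background. MRL/lpr animals bear a mutation (lpr) of the death receptor gene Fas in the germline and therefore in all cells, and MRL/mpj mice lack it. The sources used here do not say how many animals went into a library, so p-values measure the spread between these libraries. In bulk RNA, a change in the share of a cell type and a change of RNA per cell cannot be told apart.

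Glycolysis splits glucose into pyruvate, which either enters mitochondria or is reduced to lactate by lactate dehydrogenase. Under low oxygen, prolyl hydroxylases (the Egln genes) no longer mark the transcription factor HIF-1α for destruction, and HIF-1 then raises many genes of glucose uptake, glycolysis and lactate export. In macrophages and microglia, a shift toward glycolysis is known to go along with inflammatory activation, and HIF-1α can also be induced there without hypoxia.

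Each MRL/lpr library held 45481609 to 48199739 counts and each MRL/mpj library 47826322 to 49846634. The 33 genes took 0.456% to 0.493% of the counts in MRL/lpr and 0.436% to 0.444% in MRL/mpj. Microglial markers were abundant in every library, with a summed level of 20275 to 22927 CPM (counts per 1e6 counts of the scaled library) in MRL/lpr and 22669 to 23350 CPM in MRL/mpj. MRL/lpr replicate 3 stood apart, since the single gene CT010467.1 took 6.38% of its counts and 0.169% to 0.457% of those of the others. Transcripts encoded in mitochondria made up 3.06% to 3.49% of MRL/lpr counts and 5.84% to 6.38% of MRL/mpj counts. The scaling of the libraries bears on small differences, as given below. Fas itself was at 5.99 to 9.81 CPM in MRL/lpr and 6.96 to 8.64 CPM in MRL/mpj, and its summed gene count does not show which allele a library carries. Xist, expressed in female cells, was at 213 to 240 CPM in MRL/lpr and 0.519 to 0.760 CPM in MRL/mpj, while 4 Y-linked genes (Ddx3y, Eif2s3y, Kdm5d and Uty) together gave 201 to 250 CPM in MRL/lpr and 256 to 292 CPM in MRL/mpj. Transcripts of both sexes were thus present in each MRL/lpr library, so these libraries may be mixtures of animals. Xist was near absent from MRL/mpj, although the study's methods describe female mice. Strain and sex cannot be told apart in the results that follow.

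Of the 33 genes, 6 were higher and 3 were lower in MRL/lpr at an adjusted p under 0.05 by the quasi-likelihood test of edgeR, Benjamini-Hochberg adjusted over all 19554 genes tested. The higher genes were Slc2a1, Slc2a3, Hk1, Hk3, Ldha and Ldhb, and the lower genes were Aldoa, Eno2 and P4ha1. Of all genes tested, 11.1% were called higher and 9.06% lower (20.2% either way), and the corresponding shares of the 33 genes were 18.2% and 9.09%. Their median log2 fold change (MRL/lpr against MRL/mpj) was 0.11, with a range of -0.59 to 1.94, against a median of -0.01 over all genes. Only Ldhb also passed a log2 fold change of at least 1, which 4.67% of all genes did in this direction, and 0 of the 33 passed -1 or below, against 3.66% of all genes. At an unadjusted p under 0.05 there were 10 higher and 7 lower genes among the 33, a threshold at which all genes were not counted. DESeq2 called 7 higher and 3 lower among the 33, against 2374 higher and 2034 lower among all 30602 genes it fitted. That total was not limited to genes with an adjusted p, which all 33 had. The 3 MRL/lpr libraries lay wholly above the 3 MRL/mpj libraries for 13 genes and wholly below for 7, where 19.6% and 19.4% of all genes did so.

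The split between higher and lower genes depended on the scaling. CPM values and fold changes given here use TMM scaling unless stated otherwise. With library size alone, 5 of the 33 genes were higher and 9 lower, as were 1634 and 2790 of all 19554 genes, against 2178 and 1772 with TMM. The median log2 fold change of the 33 became -0.01, and that of all genes moved to -0.13. The 6 genes added to the lower ones by this scaling were Pfkl, Aldoc, Pgk1, Pgam1, Egln1 and Ddit4, and Ldha lost its call. TMM leaving out mitochondrial genes and the 20 most abundant genes gave 6 higher and 3 lower, against 2195 and 1755 of all 19554 genes. Without MRL/lpr replicate 3 there were 9 higher and 5 lower genes among the 33, against 2363 and 1971 of all 20440 genes tested. Without MRL/mpj replicate 2 there were 5 higher and 1 lower, against 1647 and 1203 of all 20450 genes tested. Ldhb, Slc2a1, Slc2a3, Hk3 and P4ha1 kept their calls in all 18 alternatives that were run.

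**Figure D1:**
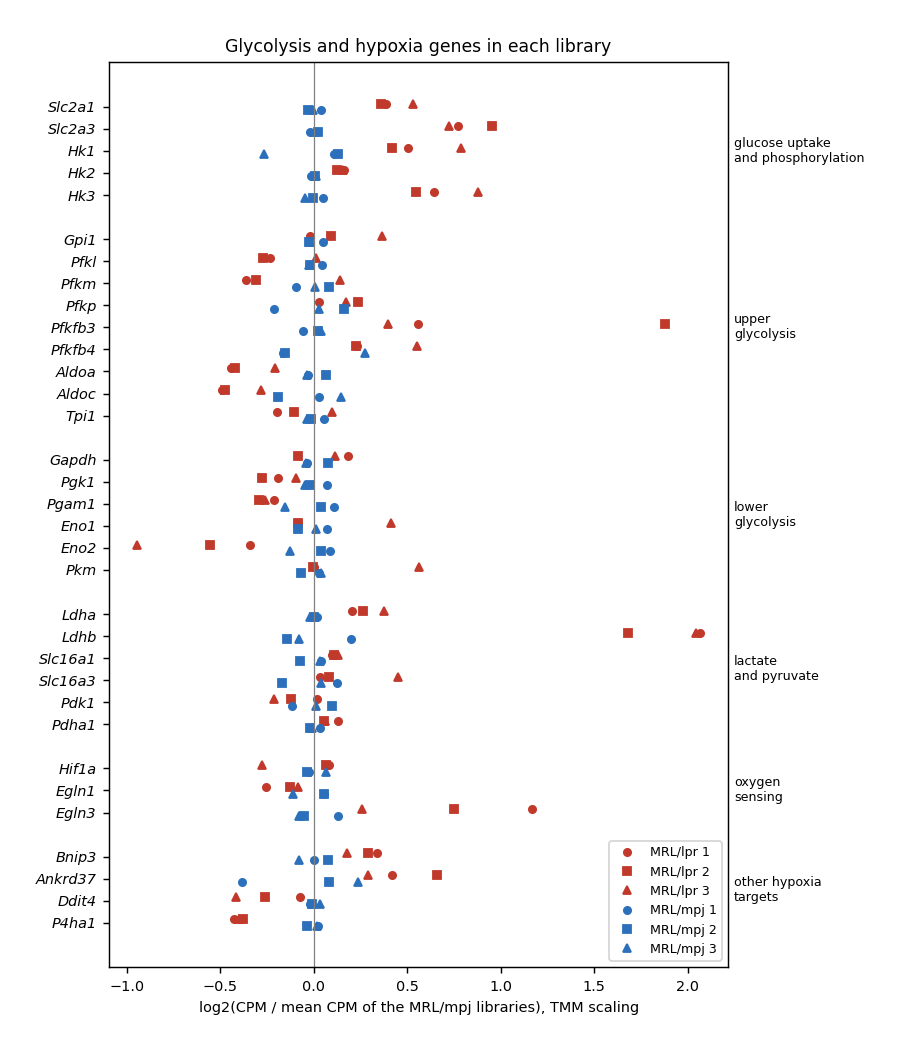
Level of each glycolysis and hypoxia gene in each of the 6 libraries, as log2 of its CPM over the mean CPM of the MRL/mpj libraries, with genes grouped by role and TMM scaling. The MRL/lpr symbols of Ldhb lie to the right of all other genes except for MRL/lpr replicate 2 of Pfkfb3 (796 CPM against 208 to 318 CPM in the other libraries), and those of Eno2, Aldoa and P4ha1 lie to the left of their MRL/mpj symbols.

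Most genes of glucose uptake and phosphorylation were higher in MRL/lpr. Of the 5 genes, 4 rose in MRL/lpr and none fell, with a median log2 fold change of 0.58, and in all 5 the 3 MRL/lpr libraries lay above the 3 MRL/mpj libraries. Over all genes tested, 11.1% were called higher and 19.6% had ranges that lay above in this way. Slc2a1, which encodes the glucose transporter GLUT1, is on chromosome 4 (GRCm38, chr4:119108711-119137983, plus strand). It was at 794, 781 and 878 CPM in MRL/lpr and at 624, 596 and 606 CPM in MRL/mpj. It rose by 0.43 on the log2 scale (SE 0.06, adjusted p = 0.0013), which is 1.34-fold. Slc2a3, the gene of the high-affinity transporter GLUT3 (chr6:122727809-122801640, minus strand), was at 62.2, 70.5 and 60 CPM in MRL/lpr and 35.8, 36.9 and 36.5 CPM in MRL/mpj. Its log2 fold change was 0.82 (SE 0.09, adjusted p = 0.000175), a 1.76-fold rise. The groups were far apart for both transporters relative to the spread within a strain.

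Hexokinases trap glucose in the cell as glucose 6-phosphate. Hk3 (chr13:55005985-55021385, minus strand), the isozyme of myeloid cells, was at 140, 131 and 165 CPM in MRL/lpr and 93.2, 89.6 and 87.2 CPM in MRL/mpj, a log2 fold change of 0.70 (SE 0.09, adjusted p = 0.000632). Hk1 (chr10:62268855-62379908, minus strand), a housekeeping isozyme that binds mitochondria, was at 85.8, 80.7 and 104 CPM in MRL/lpr and 65.1, 66.1 and 50.4 CPM in MRL/mpj, a log2 fold change of 0.58 (SE 0.13, adjusted p = 0.0123). The spread was wider for Hk1, where MRL/lpr replicate 3 was highest and MRL/mpj replicate 3 lowest, and its adjusted p was 0.054 when limma was run on log2(FPKM + 0.1). Hk2, the inducible isozyme and a classical HIF-1 target, was at 290, 282 and 289 CPM in MRL/lpr against 257, 260 and 261 CPM in MRL/mpj. The groups did not overlap, but the log2 fold change of 0.15 (SE 0.06) did not pass the test (adjusted p = 0.103). Without MRL/lpr replicate 3 Hk2 passed.

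Markers of other cells that express these genes were mixed. Slc2a1 is strongly expressed in brain endothelium, whose 5 markers summed to 1339 to 1512 CPM in MRL/lpr and 1209 to 1252 CPM in MRL/mpj. The 1 called higher was Flt1, at 698 CPM against 545 CPM on average. Kdr lay above without passing the test, and Cldn5, Pecam1 and Cdh5 overlapped. For Hk3, the 5 neutrophil markers summed to 309 to 356 CPM against 249 to 292 CPM, with 1 called higher. The 5 monocyte markers summed to 61.3 to 80.8 CPM against 44.5 to 52.1 CPM, with 2 called higher, Plac8 (17.5 CPM against 3.75 CPM on average) and Vcan. Ccr2 lay below instead without passing the test, and Ly6c2 and F13a1 overlapped. None of these markers was at 0 in all libraries, and their part in the levels of Slc2a1 and Hk3 was not tested.

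Upper glycolysis, from glucose 6-phosphate to the triose phosphates, showed 1 change, a decrease, among 9 genes and a median log2 fold change of -0.06. The share called lower was 11.1%, near the 9.06% of all genes tested. Aldoa (chr7:126795234-126800751, minus strand), the main aldolase outside liver, was at 206, 209 and 243 CPM in MRL/lpr and 275, 293 and 274 CPM in MRL/mpj. It fell by 0.35 on the log2 scale (SE 0.08, adjusted p = 0.0109), 1.28-fold. A second row with the name Aldoa, a short annotation just upstream of it with 20 to 63 counts per library, was kept apart. Aldoc, the aldolase of astrocytes and neurons, was at 8.55, 8.67 and 9.88 CPM against 12.3, 10.5 and 13.3 CPM, and its log2 fold change of -0.41 (SE 0.15) did not pass (adjusted p = 0.0797). The 5 astrocyte markers summed to 96.8 to 139 CPM in MRL/lpr and 169 to 175 CPM in MRL/mpj, with none at 0 in all libraries. The 1 called lower was Slc1a3, at 66.1 CPM against 130 CPM on average. Of the others, Gfap and Aldh1l1 were higher in each MRL/lpr library than in any MRL/mpj library, and Aqp4 and Gja1 overlapped. The part of these markers in the level of Aldoc was not tested.

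Pfkfb3 makes fructose 2,6-bisphosphate, the strongest activator of phosphofructokinase, and had the largest fitted difference in this role without passing the test. Its counts were 14971, 37471 and 11903 in MRL/lpr and 10680, 10981 and 11575 in MRL/mpj, or 318, 796 and 285 CPM against 208, 220 and 222 CPM. MRL/lpr replicate 2 was far above all other libraries. The log2 fold change was 1.11 (SE 0.46, adjusted p = 0.193) with that library and 0.48 (adjusted p = 0.005) without it. All 3 MRL/lpr libraries lay above all MRL/mpj libraries. Pfkfb4, its paralogue, was at 42.7, 42.6 and 53.3 CPM against 32.5, 32.7 and 43.9 CPM, and the groups overlapped (log2 fold change 0.34, SE 0.14, adjusted p = 0.128).

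None of the 3 phosphofructokinase genes passed. Pfkl, the liver type, was at 122, 120 and 146 CPM in MRL/lpr and 149, 142 and 142 CPM in MRL/mpj. Pfkm, the muscle type, was at 21.3, 22.1 and 30.1 CPM against 25.7, 29.0 and 27.6 CPM, and Pfkp, the platelet type, at 21, 24.3 and 23.2 CPM against 17.8, 23.0 and 21 CPM. In Pfkl and Pfkm, MRL/lpr replicate 3 lay among or above the MRL/mpj libraries while the other MRL/lpr libraries lay below them, and both genes were called lower without it. Pfkp shares 5.58% of its exon bases with Pitrm1 on the opposite strand. The isomerases on either side did not pass either. Gpi1, glucose 6-phosphate isomerase, was at 209, 226 and 273 CPM against 219, 208 and 209 CPM (log2 fold change 0.16, SE 0.10, adjusted p = 0.314), and Tpi1, triose phosphate isomerase, at 71.3, 75.9 and 87.2 CPM against 84.7, 80.6 and 79.5 CPM (log2 fold change -0.06, SE 0.09, adjusted p = 0.694).

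Lower glycolysis, from glyceraldehyde 3-phosphate to pyruvate, also showed 1 change, a decrease, among 6 genes, where 9.06% of all genes tested were called lower. Eno2 (chr6:124760053-124769673, minus strand), the neuronal enolase, was at 9.25, 7.99 and 6.10 CPM in MRL/lpr and 12.5, 12 and 10.7 CPM in MRL/mpj. It fell by 0.59 on the log2 scale (SE 0.18, adjusted p = 0.0422). The 5 neuron markers summed to 19.5 to 23.3 CPM in MRL/lpr and 33.7 to 36.4 CPM in MRL/mpj, with 2 of the 5 called lower and none at 0 in all libraries, and their part in the level of Eno2 was not tested. The call for Eno2 was lost when any library other than MRL/lpr replicate 1 was left out, with adjusted p from 0.0734 to 0.135.

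None of the other steps of lower glycolysis passed the test. Pgk1, phosphoglycerate kinase, was at 79.0, 74.5 and 84.4 CPM in MRL/lpr and 94.6, 88.8 and 87.3 CPM in MRL/mpj (log2 fold change -0.19, SE 0.08, adjusted p = 0.132). Pgam1, phosphoglycerate mutase, was at 68.2, 64.6 and 65.9 CPM against 85.3, 81.1 and 70.9 CPM (log2 fold change -0.26, SE 0.09, adjusted p = 0.0687). Both genes were below their MRL/mpj values in all MRL/lpr libraries without passing the test. Pkm, pyruvate kinase, was at 399, 397 and 588 CPM against 407, 379 and 410 CPM, so MRL/lpr replicate 3 alone lay outside the range of the others (log2 fold change 0.21, SE 0.15, adjusted p = 0.403). A count per gene does not separate the M1 and M2 splice forms of Pkm, and 15.3% of its exon bases are shared with Gm49759 on the same strand.

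Gapdh and Eno1 need a separate reading, because many processed copies of their transcripts are annotated in the mouse genome. Gapdh (chr6:125161715-125166467, minus strand) had only 2106, 1755 and 1786 counts in MRL/lpr and 1981, 2080 and 1998 in MRL/mpj in its own row. Its 77 annotated copies with at least 95% identity over 300 bases or more, of which 40 reached 10 counts in a library, held 16740, 16136 and 17771 counts in MRL/lpr and 18001, 17119 and 17515 in MRL/mpj, 88.8% to 90.9% of the sum. One of them, Gm13394, which is 99.9% identical over 1000 bases, held 6175 to 6869 counts in each library. The log2 fold change of Gapdh was 0.07 (SE 0.10, adjusted p = 0.661) in its own row and 0.12 (SE 0.08, adjusted p = 0.351) with the copies added. Eno1 (chr4:150236721-150248879, plus strand), the ubiquitous enolase, was at 102, 102 and 144 CPM in MRL/lpr and 113, 102 and 109 CPM in MRL/mpj, and 3 copies, Eno1b among them, held 49.7% to 53.6% of the summed counts. Its log2 fold change was 0.10 (SE 0.13, adjusted p = 0.671) alone and 0.13 (adjusted p = 0.595) with the copies. Neither gene passed the test in either form. The level in the own row of Gapdh, 8.61 ± 0.804 FPKM (SD, n = 3) in MRL/lpr and 8.89 ± 0.413 FPKM (SD, n = 3) in MRL/mpj, leaves out the counts in its copies.

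**Figure D2:**
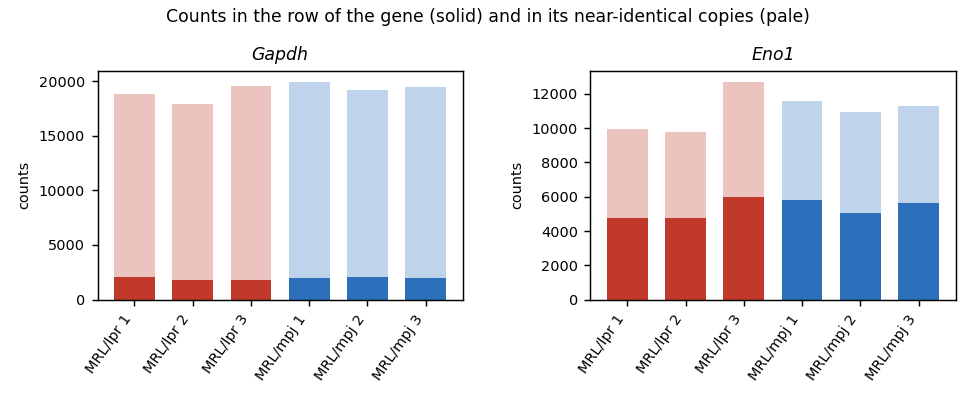
Counts per library in the row of Gapdh and of Eno1 (solid) and in their near-identical copies (pale), with MRL/lpr in red and MRL/mpj in blue. The copies held 88.8% to 90.9% of the summed counts for Gapdh and 49.7% to 53.6% for Eno1, with no separation of the strains in the sums.

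The copies mattered less elsewhere, apart from Pgam1 and Ldhb. Pgam1-ps2, identical to Pgam1 over 765 bases, held 174, 247 and 261 counts in MRL/lpr and 454, 307 and 407 in MRL/mpj. With it added, Pgam1 passed the test as lower (log2 fold change -0.28, adjusted p = 0.041), an alternative chosen after the data were seen.

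Of the 6 genes of lactate and pyruvate handling, 2 rose and none fell, where 11.1% of all genes tested were called higher and 9.06% lower. Lactate dehydrogenase is a tetramer of subunits encoded by Ldha, which favours the making of lactate, and Ldhb, which favours its use, and both genes rose. Ldhb (chr6:142490249-142507957, minus strand) had 12962, 9935 and 11343 counts in MRL/lpr and 3892, 2984 and 3242 in MRL/mpj, or 276, 211 and 271 CPM against 75.7, 59.7 and 62.3 CPM. The lowest MRL/lpr library was far above the highest MRL/mpj library. The log2 fold change of 1.94 (SE 0.13, adjusted p = 1.13e-05) is 3.83-fold, the largest difference of the 33 genes, and ran from 1.79 to 2.05 over the alternatives. Ldha (chr7:46841475-46855627, plus strand) was at 187, 194 and 210 CPM in MRL/lpr and 164, 162 and 160 CPM in MRL/mpj, a log2 fold change of 0.28 (SE 0.07, adjusted p = 0.0153). This small rise did not pass under library size alone (log2 fold change 0.16, adjusted p = 0.111) or without any one of the MRL/mpj libraries (adjusted p from 0.0555 to 0.0689).

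The upstream sequences of the 2 subunit genes, and of P4ha1, a called gene that went the other way, are printed because they carry the core of the element that HIF binds. The windows are the 250 bases before the most upstream RefSeq start site on the transcript strand, in GRCm38.p6, at chr7:46845554-46845803 (plus strand) for Ldha, chr6:142507958-142508207 (minus strand) for Ldhb and chr10:59323046-59323295 (plus strand) for P4ha1. Capitals mark matches to ACGTG or GCGTG on either strand, the only motifs searched. CACGTG holds ACGTG on both strands, was counted on each, and is also the E-box of other factors.
Ldha: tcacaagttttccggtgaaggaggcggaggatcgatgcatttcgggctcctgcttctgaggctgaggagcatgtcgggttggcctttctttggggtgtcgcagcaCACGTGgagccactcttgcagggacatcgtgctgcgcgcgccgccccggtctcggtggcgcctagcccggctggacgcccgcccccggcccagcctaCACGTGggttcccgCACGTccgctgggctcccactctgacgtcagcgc
Ldhb: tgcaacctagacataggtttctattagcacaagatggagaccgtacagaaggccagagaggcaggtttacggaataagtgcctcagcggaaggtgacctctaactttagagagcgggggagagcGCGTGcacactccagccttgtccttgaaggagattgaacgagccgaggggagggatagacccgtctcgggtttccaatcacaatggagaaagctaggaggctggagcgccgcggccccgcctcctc
P4ha1: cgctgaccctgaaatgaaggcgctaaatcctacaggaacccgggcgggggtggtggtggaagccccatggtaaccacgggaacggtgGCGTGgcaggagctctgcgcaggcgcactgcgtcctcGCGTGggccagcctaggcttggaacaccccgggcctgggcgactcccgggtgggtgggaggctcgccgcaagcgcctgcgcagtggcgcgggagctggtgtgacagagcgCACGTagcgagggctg

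The window of Ldha held 5 matches, 4 of them in 2 palindromes, that of Ldhb held 1 and that of P4ha1 held 3. Among the 33 genes, 32 had a promoter in the RefSeq table, all but Slc2a3, and 26 of these (81.2%) held at least 1 match. Of the promoters of the genes tested here, 53.5% of 12375 held one, and of all RefSeq promoters 38.6% of 27025. A match is a stretch of letters and not a measured binding site. Matches were present in 4 of 5 called higher, 1 of 3 called lower and 21 of 24 not called, groups too small to compare, and the windows of Hk1, Aldoa and Eno2 held none.

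Ldhb has a processed pseudogene, Gm5514 on chromosome 19, which is 98% identical to it over 1002 bases and which went the opposite way. Gm5514 held 35, 35 and 34 counts in MRL/lpr and 329, 349 and 407 in MRL/mpj, or 0.744, 0.744 and 0.814 CPM against 6.40, 6.98 and 7.82 CPM. It fell by 3.2 on the log2 scale (SE 0.22, adjusted p = 1.16e-05). It took 0.269% to 0.351% of the counts of the pair in MRL/lpr and 7.79% to 11.2% in MRL/mpj. How reads were assigned between these near-identical sequences is not given in the sources used here. With Gm5514 added to it, Ldhb still rose, by 1.80 on the log2 scale (SE 0.12, adjusted p = 1.1e-05).

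**Figure D3:**
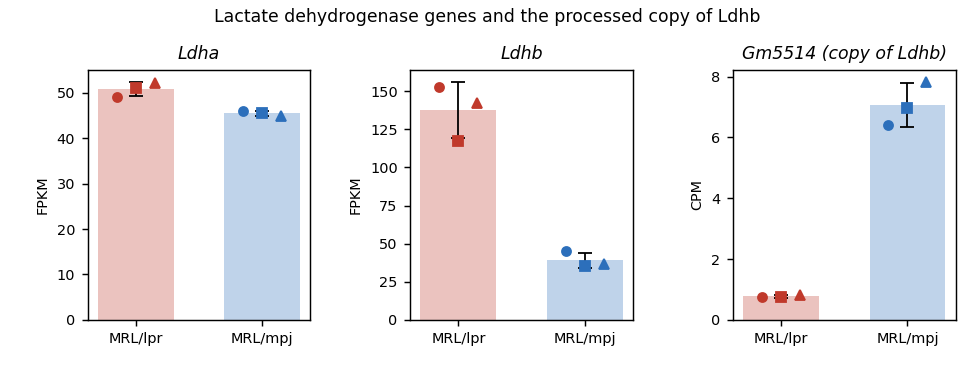
Levels of Ldha and Ldhb in FPKM and of Gm5514, the processed copy of Ldhb, in CPM, with 1 symbol per library, bars at the mean of 3 and error bars of 1 SD. Ldhb was at 138 ± 18.5 FPKM in MRL/lpr and 39.0 ± 5.09 FPKM in MRL/mpj, while Gm5514 was below 1 CPM in MRL/lpr and between 6.40 and 7.82 CPM in MRL/mpj.

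T cells also express Ldhb, and the 5 T cell markers were all called higher in MRL/lpr, with a summed level of 9.50 to 14.8 CPM against 1.42 to 2.15 CPM. The 12 mitotic genes were all called higher as well, at 216 to 231 CPM against 53.1 to 58.7 CPM in sum. None of these markers was at 0 in all libraries, and their part in the level of Ldhb was not tested.

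The 4 remaining genes of this role did not pass. Slc16a1, the lactate transporter MCT1, was at 147, 148 and 150 CPM in MRL/lpr and 141, 131 and 141 CPM in MRL/mpj (log2 fold change 0.11, SE 0.06, adjusted p = 0.279). Slc16a3, the lactate exporter MCT4 and a HIF-1 target, was at 35, 36.2 and 46.9 CPM against 37.3, 30.4 and 35.1 CPM (log2 fold change 0.20, SE 0.13, adjusted p = 0.345). Neither transporter passed the test. Pdk1 is a HIF-1 target whose product limits the oxidation of pyruvate by inhibiting pyruvate dehydrogenase. Its level was 84.9, 77.2 and 72.6 CPM against 77.4, 90.0 and 84.8 CPM (log2 fold change -0.10, SE 0.09, adjusted p = 0.484). Pdha1, a subunit of that dehydrogenase, was at 73.2, 69.5 and 69.8 CPM against 68.4, 65.8 and 66.4 CPM (log2 fold change 0.08, SE 0.07, adjusted p = 0.484). Pdha1 and Pgk1 lie on the X chromosome, where the sexes in the libraries differed as given above, and 16.2% of the exon bases of Pdha1 are shared with Map3k15 on the opposite strand.

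**Figure D4:**
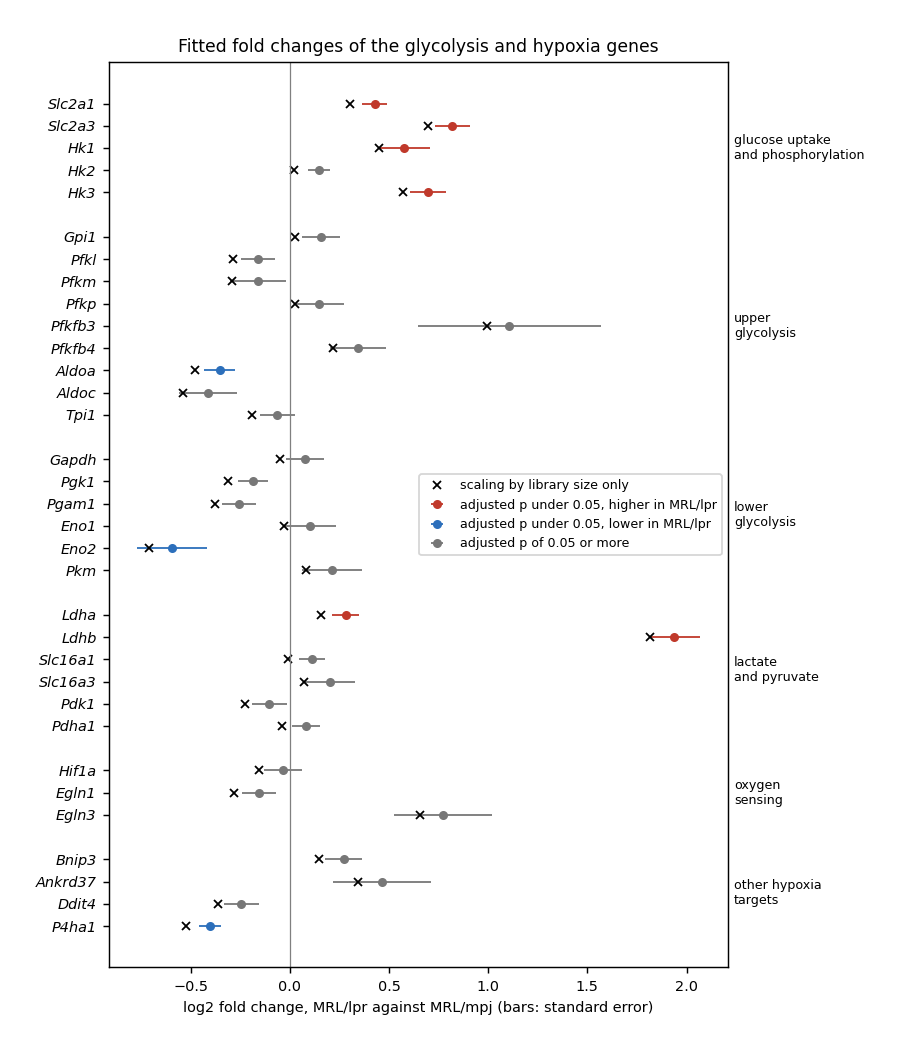
Fitted log2 fold change of each gene, MRL/lpr against MRL/mpj, with standard errors, coloured by call, and crosses for scaling by library size only. Red points cluster in glucose uptake and phosphorylation (4 of 5) and in the lactate dehydrogenases, and the crosses lie to the left of the points in each role, with Gapdh, Eno1, Slc16a1 and Pdha1 changing sign.

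No gene of oxygen sensing passed the test. Hif1a, the oxygen-regulated subunit of HIF-1, was at 252, 249 and 196 CPM in MRL/lpr and 234, 232 and 249 CPM in MRL/mpj (log2 fold change -0.04, SE 0.10, adjusted p = 0.849). MRL/lpr replicate 3 was the lowest library, and without it the fold change was 0.08. HIF-1α is controlled mainly as a protein, which these data do not measure. Egln1, the gene of the main prolyl hydroxylase PHD2, was at 46.3, 50.5 and 52.0 CPM against 57.4, 57.3 and 51.2 CPM (log2 fold change -0.16, SE 0.09, adjusted p = 0.264). Egln3 encodes PHD3 and is itself induced by HIF. It was at 8.34, 6.25 and 4.45 CPM in MRL/lpr and 4.07, 3.58 and 3.52 CPM in MRL/mpj, with every MRL/lpr library above every MRL/mpj library. Its log2 fold change of 0.77 (SE 0.25) had an adjusted p of 0.0564, which became 0.042 with DESeq2 and 0.0123 without MRL/lpr replicate 3.

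Of the other hypoxia targets, 1 of 4 changed, and it fell, where 9.06% of all genes tested were called lower. P4ha1 (chr10:59323296-59373304, plus strand), the catalytic subunit of the prolyl 4-hydroxylase that matures collagen, was at 293, 303 and 298 CPM in MRL/lpr and 400, 384 and 398 CPM in MRL/mpj. The spread within each strain was small beside the fall of 0.40 on the log2 scale (SE 0.06, adjusted p = 0.000863), 1.32-fold. Its promoter, printed above with those of Ldha and Ldhb, holds 3 core motifs. Bnip3, a mitophagy receptor, was at 34.2, 33.1 and 30.6 CPM against 27.0, 28.5 and 25.6 CPM (log2 fold change 0.27, SE 0.09, adjusted p = 0.0704), and Ankrd37 at 3.76, 4.46 and 3.45 CPM against 2.16, 2.98 and 3.32 CPM (log2 fold change 0.46, SE 0.25, adjusted p = 0.242). Ddit4, which encodes the mTORC1 inhibitor REDD1, was at 129, 114 and 102 CPM against 134, 135 and 139 CPM (log2 fold change -0.24, SE 0.09, adjusted p = 0.0915). For Bnip3 and Ankrd37 the MRL/lpr libraries lay above, and for Ddit4 below, without passing the test, and 22.7% of the exon bases of Ankrd37 are shared with Lrp2bp on the opposite strand.

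Levels could be ordered between genes only on the FPKM scale, which is per length and, as deposited, scaled by library size. In MRL/mpj, Slc2a1 was highest at 161 ± 3.61 FPKM (SD, n = 3), followed by Aldoa at 89.7 ± 3.53 FPKM, P4ha1 at 89.1 ± 1.85 FPKM, Pkm at 74.1 ± 3.09 FPKM and Ddit4 at 72.1 ± 1.4 FPKM. Aldoa and P4ha1 did not differ beyond their spread, and neither did Pkm and Ddit4. Ldhb was at 39.0 ± 5.09 FPKM there, near Hk2 at 40.4 ± 0.412 FPKM and Hif1a at 37.6 ± 1.46 FPKM. In MRL/lpr Slc2a1 remained highest at 199 ± 6.4 FPKM and Ldhb came next at 138 ± 18.5 FPKM, above Pkm at 78.5 ± 15.9 FPKM, Aldoa at 64.4 ± 3.9 FPKM and P4ha1 at 62.0 ± 2.23 FPKM. The lowest levels were those of Eno2, Pfkp, Ankrd37 and Egln3, with strain means between 1.30 and 2.30 FPKM.

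Isozymes of one step were then compared as shares of their summed FPKM, which does not depend on the scaling of a library. With 3 libraries against 3, the smallest two-sided p that an exact permutation test can give is 0.1, or 0.18 after Benjamini-Hochberg adjustment over the 9 families, so no share could pass. The Ldhb share of the lactate dehydrogenases was 75.7%, 69.6% and 73.2% in MRL/lpr and 49.3%, 43.7% and 45.1% in MRL/mpj. It was 26.8 points higher in MRL/lpr (exact permutation p = 0.1), with no overlap. By their own rows, Ldhb was thus the larger part of the summed Ldha and Ldhb transcripts in MRL/lpr and the smaller in MRL/mpj. This leaves out Gm5514, which held 7.79% to 11.2% of its summed counts with Ldhb in MRL/mpj. Adding it would raise the MRL/mpj shares, the highest of which was near an even split.

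Among the hexokinases, the Hk2 share was lower and the Hk3 share higher in each MRL/lpr library than in any MRL/mpj library. Hk2 made up 50.2%, 51.2% and 45.9% of the 3 hexokinases in MRL/lpr and 56.6%, 57.6% and 59.7% in MRL/mpj, 8.91 points lower on average. The Hk3 share was 39.4%, 38.6% and 42.5% against 33.3%, 32.2% and 32.3%. Among the enolases, the Eno2 share of the summed Eno1 and Eno2 was 7.36% ± 2.5 (SD, n = 3) against 11.0% ± 0.911. It was taken over the own row of Eno1, which leaves out the 49.7% to 53.6% of its counts that sit in copies, and adding these would lower the share. Eno3, another enolase gene outside the 33 and named after its values were seen, was left out as well. It was at 14.3 FPKM in MRL/lpr and 23.9 FPKM in MRL/mpj and was called lower (adjusted p = 0.00324). With Eno3 in the sum, the Eno2 shares of the strains would overlap. Among the glucose transporters the Slc2a3 share was 3.68% ± 0.492 against 2.81% ± 0.102. The Egln3 share of the summed Egln1 and Egln3 was 14.7% ± 4.65 against 8.33% ± 0.502. Egln2, another prolyl hydroxylase gene outside the 33, was left out of that sum. It was at 13.6 FPKM in MRL/lpr and 13.2 FPKM in MRL/mpj. With Egln2 in the sum, the Egln3 shares of the strains would overlap. In these 4 families, as defined here, the strains did not overlap either (exact permutation p = 0.1 each), and Slc2a1 remained by far the larger of the 2 glucose transporters of its family in all libraries.

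Shares overlapped in the 4 other families. The Pfkp share of the phosphofructokinases was 6.03% ± 0.784 in MRL/lpr and 4.88% ± 0.595 in MRL/mpj (SD, n = 3, exact permutation p = 0.2), and the Aldoc share of the aldolases 3.54% ± 0.0412 against 3.69% ± 0.543 (exact permutation p = 0.7). The Slc16a3 share of the monocarboxylate transporters was 18% ± 2.23 against 17.1% ± 0.888 (exact permutation p = 0.8). The Pfkfb4 share of its pair was 15.8% ± 7.52 against 20.6% ± 2.51 (exact permutation p = 0.4), with the wide spread in MRL/lpr following Pfkfb3 in replicate 2.

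**Figure D5:**
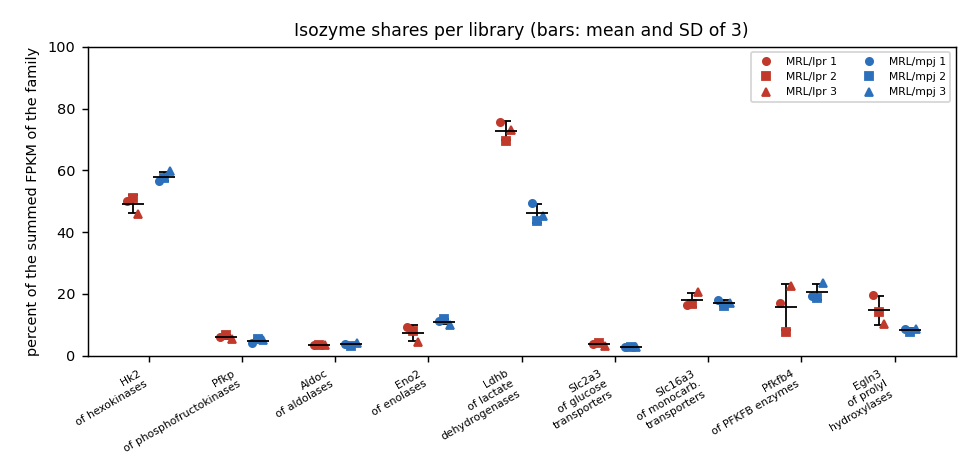
Share of 1 isozyme in the summed FPKM of its family (percent), for 9 families, with 1 symbol per library, and bars for the mean and SD of 3 libraries. The Ldhb share lies at 69.6% to 75.7% in MRL/lpr and 43.7% to 49.3% in MRL/mpj, the widest gap of the 9 families.

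Neighbouring pathways were counted on further lists of genes. Of 25 other genes of glycolysis and glucose transport, 22 could be tested, 4 were higher and 4 lower, with a median log2 fold change of -0.07. These are 18.2% each, against 11.1% and 9.06% of all genes tested. Decreases of low transcripts were among the larger differences. The transporter genes Slc2a12 (log2 fold change -1.58, SE 0.19, adjusted p = 0.000335) and Slc2a4, which encodes the insulin-responsive GLUT4 (log2 fold change -1.54, SE 0.43, adjusted p = 0.0314), fell. They stood at 3.72 to 5.08 CPM against 11.1 to 14.7 CPM and at 0.723 to 2.12 CPM against 2.84 to 4.60 CPM. Of the 4 genes called higher, 3 were transporters too, named here after their values were seen. These were Slc2a6 (log2 fold change 1.53, adjusted p = 0.0035), Slc2a9 (1.05, adjusted p = 0.00054) and the abundant fructose transporter gene Slc2a5 (0.32, adjusted p = 0.0232, 853 to 1038 CPM in MRL/lpr and 715 to 766 CPM in MRL/mpj). Transporter genes outside the set of 33 were thus called in both directions.

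Genes that carry pyruvate carbon into mitochondria and through the citric acid cycle included decreases and no increases. For pyruvate entry, 0 of 12 were higher and 4 lower, with a median log2 fold change of -0.25, and for the citric acid cycle 0 of 16 were higher and 3 lower, with a median of -0.21. Of all genes tested, 9.06% were called lower. Without MRL/lpr replicate 3 the counts of lower genes were 2 for pyruvate entry and 6 for the cycle, and 1971 of all 20440 genes tested. At an unadjusted p under 0.05, where all genes were not counted, there were 0 higher and 7 lower on each list. DESeq2 called 0 higher and 5 lower on each, and 2034 of all 30602 genes it fitted as lower, a total not limited to genes with an adjusted p. Pdk4, an inhibitory kinase of pyruvate dehydrogenase (-0.62, SE 0.16, adjusted p = 0.0206), Mpc1, a subunit of the mitochondrial pyruvate carrier (-0.55, SE 0.14, adjusted p = 0.0216), and Pdk3, another such kinase (-0.50, SE 0.14, adjusted p = 0.0315), had the largest log2 fold changes of the first list. In the cycle these were Sdhb of succinate dehydrogenase (-0.62, SE 0.10, adjusted p = 0.00233) and the isocitrate dehydrogenase subunits Idh3a (-0.42, SE 0.09, adjusted p = 0.011) and Idh3b (-0.24, SE 0.07, adjusted p = 0.0433). The genes of the first list that fell thus include inhibitors of pyruvate oxidation as well as its carrier. With library size alone, 7 of 12 and 8 of 16 were called lower, as were 2790 of all 19554 genes. Mitochondrially encoded transcripts were lower in MRL/lpr too, as given above, and their part in these lists was not tested.

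In the pentose phosphate pathway, 2 of 7 genes rose and 1 fell, where 11.1% of all genes tested were called higher and 9.06% lower. The rises were of the NADPH-producing enzymes. G6pdx was at 70.1, 70.0 and 82.9 CPM in MRL/lpr and 63.6, 54.5 and 58.5 CPM in MRL/mpj (log2 fold change 0.34, SE 0.10, adjusted p = 0.0378), and it is X-linked. Pgd was at 160, 173 and 210 CPM against 143, 149 and 138 CPM (0.34, SE 0.10, adjusted p = 0.0413), and transketolase, Tkt, at 107, 106 and 125 CPM against 139, 146 and 133 CPM (-0.31, SE 0.08, adjusted p = 0.0295). Under library size alone both rises lost their calls.

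Regulators and further targets of HIF moved in both directions. Of 12 regulators, 1 was higher and 1 lower (8.33% each), near the 11.1% and 9.06% of all genes tested. Cited2, which competes with HIF-1α for its coactivators, rose from 76.8, 87.0 and 75.2 CPM in MRL/mpj to 150, 145 and 123 CPM in MRL/lpr (log2 fold change 0.80, SE 0.10, adjusted p = 0.00033). Arnt2, a HIF partner of neurons, fell by 1.67 (SE 0.25, adjusted p = 0.00131). It was low, at 1.87 to 3.59 CPM in MRL/lpr and 7.61 to 9.12 CPM in MRL/mpj. The part of the neuron markers, given above with Eno2, in the level of Arnt2 was not tested. Of 29 other target genes, 4 were higher (13.8%) and 7 lower (24.1%), with a median log2 fold change of -0.08, against 11.1% and 9.06% of all genes tested. Adm, the vasodilator adrenomedullin, rose by 1.32 (SE 0.12, adjusted p = 7.66e-05) from 7.51 to 9.22 CPM to 21.2 to 21.9 CPM. Pgf, a growth factor of vessels, fell by 1.26 (SE 0.27, adjusted p = 0.0089). Early response genes known to be induced by dissociation of tissue were higher in MRL/lpr for 15 of 15 listed genes, with a median log2 fold change of 0.85. Egr1, one of the 4 HIF targets called higher, is also one of these 15 genes. Some HIF targets are known to respond to the same stimuli, and the part of dissociation in the counts above was not tested.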

How the data were processed

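CD11b-selected brain microglia of MRL/lpr and MRL/mpj mice were profiled by RNA-seq, 3 libraries per strain. The authors trimmed the reads with cutadapt 1.9.3 and aligned them to GRCm38 with HISAT2 2.0.4, and their processing notes also name Cufflinks and Cuffdiff 2.2.1. The deposited files hold raw whole-number counts of each gene and FPKM, which the authors scaled by gene length and library size. The counting tool is not given in the sources used here, nor is its treatment of strand or of reads with several matches. The labels describe removal of ribosomal RNA and a stranded kit, and the methods describe purification of mRNA. The deposited counts piled up at multiples of 4, and dividing them by 4 was an alternative.

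Symbols and coordinates came from GENCODE M21 on GRCm38 for 55141 of 55401 identifiers, and promoters from RefSeq on GRCm38.p6. MRL/lpr was tested against MRL/mpj in edgeR 4.0.16 (R 4.3.3) without covariates, with filterByExpr (minimum count 10, minimum total 15), TMM scaling, robust dispersions, the quasi-likelihood test and Benjamini-Hochberg adjustment over 19554 genes. Genes rose or fell at an adjusted p under 0.05, and the study's minimum absolute log2 fold change of 1 was an alternative. Other alternatives were library size or RLE factors, other filters, TMM leaving out mitochondrial genes and the 20 most abundant genes, a replicate block, each library left out, DESeq2 1.42.0, and limma 3.58.1 on log2(FPKM + 0.1) and log2(FPKM + 1). Adding near-identical copies, found with blastn 2.17.0, was chosen after the data were seen. Isozyme shares were tested by exact two-sided permutation in scipy 1.17.1. Of these steps, only the edgeR fit was tested on simulated counts, with the same dispersion for all genes. The members and lists were chosen with earlier results of these data known. All 33 members are named, with up to 3 called genes of largest log2 fold change from each further pathway list and copies with at least 10 counts in a library. Some genes that this rule covers are not reported here.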

Additional observations from a re-analysis of the deposited data

How the results depend on the processing

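Over 18 alternatives, Ldhb, Slc2a1, Slc2a3, Hk3 and P4ha1 kept their direction and their call, while Ldha, Hk1, Aldoa and Eno2 kept their direction and lost the call under at least 1. The count of lower genes among the 33 was 9 with library size alone, 9 with limma on log2(FPKM + 0.1) and 9 on log2(FPKM + 1), scales that also move the median of all genes, and their median log2 fold change was then -0.011, -0.0081 and -0.0079. With a log2 fold change of at least 1 or at most -1 required as well, 1 gene was higher and 0 were lower. Leaving out 1 library at a time gave 1 to 5 lower genes, a median from 0.060 to 0.15, and 11 to 21 lower genes among the other pathway lists, against 20 lower and 11 higher with all libraries.

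Signs changed only for small differences. With library size alone these were Gapdh (-0.050), Eno1 (-0.029), Slc16a1 (-0.011) and Pdha1 (-0.040), with limma on log2(FPKM + 0.1) Gapdh (-0.050), Eno1 (-0.038), Slc16a1 (-0.0081) and Pdha1 (-0.038), and on log2(FPKM + 1) Gapdh (-0.045), Eno1 (-0.036), Slc16a1 (-0.0079) and Pdha1 (-0.036). When 1 library was left out at a time, Tpi1 ran from -0.14 to 2.2e-05, Eno1 from -0.081 to 0.19 and Hif1a from -0.096 to 0.077. Over counts in place of FPKM, the strain difference of the Pfkp share was 2.31 points and that of the Slc2a3 share 1.66 points. Except for the scaling, the cause of these shifts was not tested.

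Libraries share replicate numbers across strains, but same-numbered libraries did not deviate together over all genes tested (correlations of -0.04, -0.02 and -0.03). With 3 libraries per strain, this check cannot tell whether same-numbered libraries were prepared together. With the replicate block, 6 of the 33 genes were higher and 3 lower, against 1754 and 1309 of all 19554 genes. Ldha was then not called (adjusted p = 0.0541), Pfkfb4 was called higher (adjusted p = 0.0471), and 12 genes of the other pathway lists were lower.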
